A study of Mus musculus with 10 samples.

Results

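The genes described here are 10 negative regulators and transcriptional targets of RAS-ERK signaling. Their transcripts were read in endothelial cells of lymphatics (LECs) and of blood vessels (BECs) of ear skin, in Pik3ca mutant and control mice. The genes were taken by name, and all 10 were found among the 46517 Ensembl genes of the count tables. Spry1, Spry2, Spry4, Spred1 and Spred2 encode inhibitors that act upstream of ERK. Dusp4, Dusp5 and Dusp6 encode dual-specificity phosphatases that remove phosphate from ERK. Etv4 and Etv5 encode ETS transcription factors of the PEA3 family.

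When a growth factor binds its receptor, RAS activates a chain of kinases that ends in ERK, and the same receptors also activate PI3K. Active ERK induces its own inhibitors, so transcripts of the Sprouty, SPRED and DUSP genes and of the PEA3 factors are widely read as a record of ERK output. In lymphatic endothelium the pathway runs mainly below VEGFR3 and FGF receptors, and it is known for driving growth and lymphatic identity. The comparison asks whether this record is higher or lower in mice bred to express an active form of PI3K in endothelium.

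Cells were profiled by Smart-Seq2, a plate method that gives full-length reads and no molecular identifiers. Mutant mice carried Pik3caH1047R;Cdh5-CreERT2 and were Cre+, so that 4-OHT switched on the mutant kinase in endothelium of all vessel types through the Cdh5 promoter. The drug, at 10 mg/ml in acetone, was put on the ears at 3 weeks of age, and ears were taken at 5 weeks. Of the 2 controls with a count table, both 5 weeks old, control 1 was an untreated C57BL/6J mouse and control 2 a 4-OHT-treated Cre- animal of the mutant strain. The transcript of the transgene is not in the count tables, so recombination was not checked here.

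The 9 plates held 3456 wells, of which 3248 passed the limits on genes, reads and mitochondrial share. No cell shared its counts with another cell. A cell was called a LEC when Prox1, Flt4 and Mmrn1 summed to at least 300 CPM, the usual scaling of counts by the total of a library, and exceeded the sum of Flt1, Emcn and Podxl, and a BEC in the reverse case. This gave 1641 LECs (1283 from mutants, 358 from controls) and 1490 BECs (1174 and 316), and left 117 cells in neither class. The labels name only LECs, sorted on Podoplanin and CD31. The study's methods state that LECs and BECs were both sorted, and both types were present. Markers outside the rule followed the names. Lyve1 lay at 1206–2510 CPM in LECs and 24.6–136 in BECs, and Esam at 126–209 in LECs and 1454–1997 in BECs. One blood vessel marker, Cd34, rose within LECs from 28.0–71.1 in controls to 349–611 in mutants (log2 3.22, adjusted p = 0.0134 in edgeR). Summed LECs of a mouse held 55616045–194353210 reads and summed BECs 38402388–99630824. Mutants 1–4 were on plates numbered 323 to 332, and mutant 5 and both controls on plates 891 to 901. The plate number series and genotype can therefore be told apart only through mutant 5. Ratios of mutant 5 to the control mean are given below for Spry2, Spred2 and Dusp6 only.

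Levels below are CPM in the summed cells of a mouse, scaled by TMM over all 14 sums. Per kilobase of exon, Dusp6 stood highest in both cell types and both groups. In LECs it averaged 51.8 in controls and 27.3 in mutants, and in BECs 45.6 and 54.1. Its range over mice did not meet that of the next gene in any of the 4 cases. Spry2 came next in control LECs at 15.1 and Spry1 in mutant LECs at 5.28, and in BECs the second place was held by Spry1 at 21.2 and 17.4. Below these the ranges of neighbours mostly overlapped. Dusp4 stood lowest in LECs, at 0.188 in controls and 0.0609 in mutants.

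In LECs Spry2, Dusp6 and Spred2 lay below both controls in every mutant mouse, while Etv4 and Dusp5 did not. In BECs Spry2, Spry4, Spred1 and Spred2 did so, Dusp6 did not, and Dusp5 lay above both controls in every mutant. Of the 10 genes tested in LECs, edgeR called 1, Spry2, where it called 2.76% of 19758 genes. In BECs it called none, against 2.12% of 19315 genes. An unadjusted p under 0.05 was found for 3 of the 10 in LECs, where 20.1% of all genes had one, and for 5 of the 10 in BECs, where 19.6% did. DESeq2 called 3 in LECs (Dusp6, Spred2 and Spry2, background 12.6%) and 4 in BECs (Spred1, Spred2, Spry2 and Dusp5, background 11.6%). Without regard to any model, 3 genes had all mutants below both controls in LECs and 4 in BECs, where 12.2% and 11.7% of all genes did. None had all mutants above both controls in LECs and 1 did in BECs, where 13.3% and 13.4% of all genes did. The median log2 fold change of the 10 was −0.54 in LECs and −0.55 in BECs, beside −0.01 and 0.01 over all genes tested. With 2 control mice the spread of the controls was poorly known, and fewer active cells and less RNA per cell cannot be told apart in sums.

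**Figure D1:**
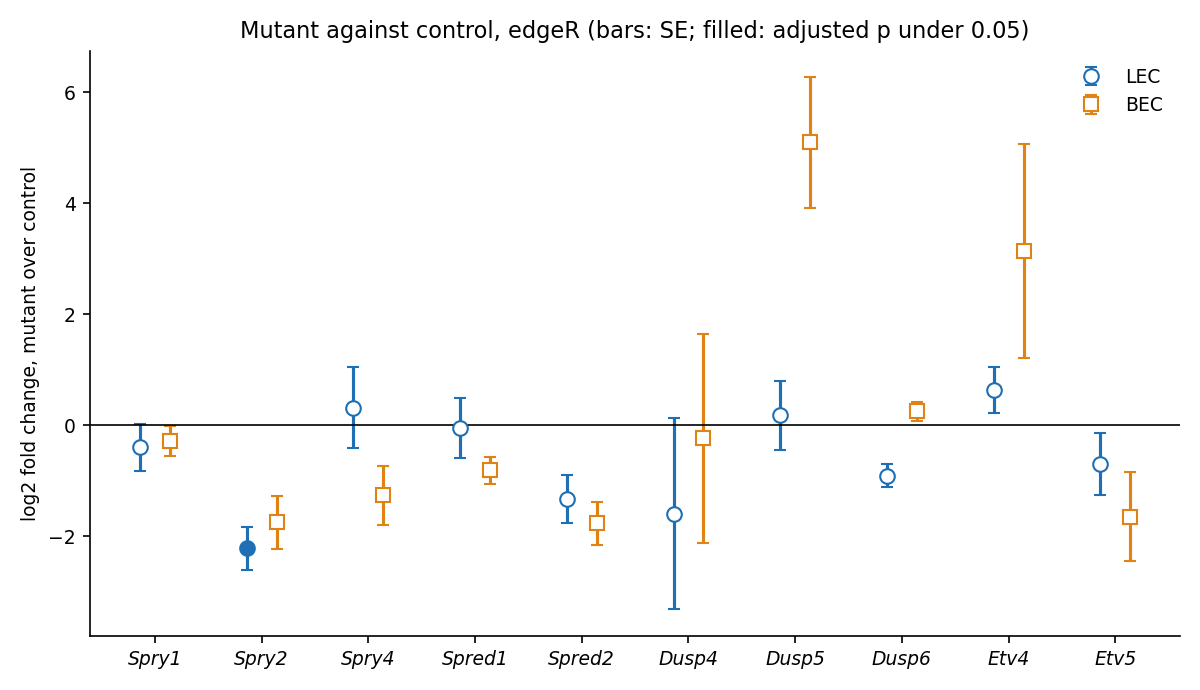
The log2 fold change of mutant over control mice for each gene, in LECs (circles) and BECs (squares), from the edgeR fits, with bars of 1 SE. The filled symbol, Spry2 in LECs at −2.21, is the one value with an adjusted p under 0.05. The widest bars are those of Dusp4 in both types and of Dusp5 and Etv4 in BECs, where few cells held the reads.

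Spry2 (ENSMUSG00000022114, GRCm38 chr14:105891947-105896819, minus strand) encodes a Sprouty protein that blocks receptor signals to RAS. In LECs its level was 30.3 and 32.7 in controls 1 and 2. In mutants 1–5 it was 4.99, 4.76, 5.20, 7.24 and 11.2. All 5 mutants lay well below both controls, and mutant 5 was the highest of them. The fit gave a level 4.63-fold lower in mutants (log2 −2.21, SE 0.38, adjusted p = 0.0278). In BECs the controls were at 30.3 and 14.2 and the mutants at 3.90, 6.30, 4.65, 8.63 and 9.58. The groups again did not overlap, but the controls differed from each other, and the difference (log2 −1.74, SE 0.48) had an adjusted p of 0.103. Without control 1 the BEC difference was −1.09 (adjusted p = 0.375). Within the later plate series, the log2 ratio of mutant 5 to the control mean was −1.49 in LECs and −1.21 in BECs. The LEC call was lost without either control or any of mutants 1–4 in turn (log2 from −2.24 to −2.11, adjusted p from 0.0561 to 0.0749), on the first plate of each mouse (log2 −1.95, adjusted p = 0.0880) and with the plate series as a block (log2 −1.44, adjusted p = 0.273). It was also lost without cycling cells and without cells over both marker limits, where the difference was about as large as in all LECs (log2 −2.08, adjusted p = 0.0513, and −2.47, adjusted p = 0.0668).

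Reads of Spry2 were spread differently over cells in the 2 plate series. With every cell thinned to 50000 reads, 30.1% and 30.3% of control LECs had at least 1 Spry2 read, and 15.8%, 25.1%, 19.3%, 31.3% and 19.1% of LECs in mutants 1–5. The shares overlapped (exact permutation p = 0.286, two-sided, adjusted over 20 comparisons 0.635). What differed was the number of reads in a cell that had any. It averaged 4.62 and 5.49 in controls, 1.15–1.79 in mutants 1–4 and 3.61 in mutant 5. In mutants 1–4, 75.9–87.2% of the LECs with Spry2 held exactly 1 read, against 26.4–38.6% in mutant 5 and the controls. Before thinning, 155 of 187 LECs and 146 of 184 BECs of mutant 2 had a read, with at most 8 and 14 reads in a cell. In mutants 2–4 such reads were in 68.9–86.8% of the cells of either type, in mutant 1 in 62.5% of LECs and 32.8% of BECs, and in mutant 5 and the controls in 21.1–53.6%. No class of cells on the plates is known to lack Spry2, so the background was not measured. At 5 reads or more, a limit chosen after seeing the data, 10.4% and 13.7% of control LECs passed. In mutants the shares were 1.09%, 0%, 0.551%, 0% and 5.18%, where 0 of 187 and 0 of 182 cells allow up to 1.60% and 1.65%. In BECs 7.55% and 5.10% of control cells passed, and 0% to 1.98% of mutant cells. These groups did not overlap in either type (exact permutation p = 0.0952, the lowest that 21 splits of 7 mice allow, adjusted 0.476). At this limit 2 of the 10 genes had shares without overlap in LECs and 2 in BECs, where 23.4% and 26.7% of all genes tested did.

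The promoters of Spry2 and of Dusp6, the genes called in mutant LECs or in subclasses of them, are shown so that the ETS core can be seen in them. ETS factors, which include the PEA3 family, bind around the letters GGAA. The sequences are the 250 bases before the transcript start on the gene's strand, from RefSeq (GRCm38.p6), in lower case with GGAA, or TTCC for the other strand, in capitals.
Dusp6, plus strand, chr10:99262981-99263230: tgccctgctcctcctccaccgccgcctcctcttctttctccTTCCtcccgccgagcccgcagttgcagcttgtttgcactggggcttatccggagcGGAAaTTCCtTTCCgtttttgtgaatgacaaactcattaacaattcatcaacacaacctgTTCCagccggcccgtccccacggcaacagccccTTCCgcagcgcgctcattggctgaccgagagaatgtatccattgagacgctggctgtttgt
Spry2, minus strand, chr14:105896820-105897069: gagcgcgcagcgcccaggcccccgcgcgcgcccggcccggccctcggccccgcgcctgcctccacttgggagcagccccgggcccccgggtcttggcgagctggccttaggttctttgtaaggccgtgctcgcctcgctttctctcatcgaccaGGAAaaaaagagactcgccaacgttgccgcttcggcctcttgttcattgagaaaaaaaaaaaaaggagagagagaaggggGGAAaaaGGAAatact

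Dusp6 held 6 such cores and Spry2 3. The core is common, being present in 93.4% of the 32851 promoter windows of the same length, searched on both strands. The longer ETS motif CCGGAAG, found in 6.91% of windows, and the AP-1 motif TGANTCA, found in 6.75%, were in none of the 8 windows that 7 of the genes had. A match is a description of the letters only.

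Spred2 (ENSMUSG00000045671, chr11:19924375-20024026, plus strand) encodes a SPRED protein, which brings neurofibromin to the membrane to switch RAS off. In BECs its level was 53.5 and 66.3 in controls and 11.6, 32.2, 14.8, 14.9 and 14.4 in mutants. Every mutant was below both controls, with mutant 2 apart from the other four. The fold change was 3.39-fold lower (log2 −1.76, SE 0.39) with an adjusted p of 0.0608 in edgeR and 0.000857 in DESeq2. It passed in edgeR without mutant 2, in thinned cells and without cells over both marker limits. In LECs the controls were at 14.1 and 24.8 and the mutants at 4.20, 12.5, 7.14, 7.63 and 7.02. The groups did not overlap here either (log2 −1.32, SE 0.43, adjusted p = 0.136). The share of cells was lower too in BECs, where 30.2% and 24.8% of thinned control cells and 9.29–18.5% of mutant cells had a read (exact permutation p = 0.0952, adjusted 0.635). The log2 ratio of mutant 5 to the control mean was −2.06 in BECs and −1.47 in LECs.

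Spred1 (ENSMUSG00000027351, chr2:117121374-117182279, plus strand), the relative of Spred2, was lower in mutant BECs by a smaller step. Controls were at 27.4 and 40.2 and mutants at 19.5, 19.6, 21.7, 18.7 and 16.8. The 5 mutants lay close together and below both controls (log2 −0.81, SE 0.25), with an adjusted p of 0.133 in edgeR and 0.0181 in DESeq2. With each mouse left out in turn, the log2 fold change ran from −1.05 to −0.50. The shares of thinned BECs with a read overlapped, at 15.7% and 13.4% in controls and 11.6–17.9% in mutants. Reads per BEC that had any were 8.24 and 18.1 in controls and 5.21–7.20 in mutants. In LECs it was at 13.6 and 6.80 in controls and 4.83–13.3 in mutants. These ranges overlapped almost wholly, and the log2 fold change was −0.04 (SE 0.54), or 0.57 without control 1.

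Dusp6 (ENSMUSG00000019960, chr10:99263231-99267489, plus strand) encodes the cytoplasmic phosphatase most specific for ERK, and its transcript is a common readout of ERK activity. In LECs its level was 149.9 and 139.6 in controls and 63.0, 58.6, 91.8, 90.8 and 77.4 in mutants. The groups stood apart by a wide gap, and the mutants averaged 76.3 ± 15.4 (SD, n = 5) against a control mean of 145. The log2 fold change was −0.91 (SE 0.21), a level 1.87-fold lower, with an adjusted p of 0.0627 in edgeR and 0.00165 in DESeq2. Over the other edgeR settings and tools the adjusted p ran from 0.00165 to 0.671. It passed in thinned cells, on the first plate of each mouse, and without cells bearing markers of other types. The log2 ratio of mutant 5 to the controls of its own plate series was −0.90. In BECs the controls were at 120.1 and 135 and the mutants at 129, 173, 163, 158 and 134. The groups overlapped, with 3 mutants above both controls, and the difference was small (log2 0.25, SE 0.17, adjusted p = 0.446).

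The change of Dusp6 in LECs less that in BECs was −1.20 on the log2 scale (SE 0.25). This difference had an adjusted p of 0.120 in edgeR, which called 0 of the 10 genes and 0.191% of 21933 genes in this comparison, and of 0.00102 in DESeq2, which called Dusp6 and Dusp5 and 5.74% of genes. Dusp6 and Dusp5 were also the 2 of the 10 with an unadjusted edgeR p under 0.05, where 11.5% of all genes had one. For Spry2 and Spred2 the difference was −0.60 (SE 0.50) and 0.48 (SE 0.33), and neither passed, which does not show that their effects were equal.

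The lower level of Dusp6 in mutant LECs went with fewer cells that had a read. With cells thinned to 50000 reads, 49.2% and 40.6% of control LECs had at least 1 read, with 95% Wilson intervals of 42.0–56.4% and 33.6–48.0%. In mutants 1–5 the shares were 33.7%, 20.3%, 32.0%, 26.4% and 34.6%. All mutants lay below both controls (exact permutation p = 0.0952, adjusted 0.635). Of the 10 genes, 1 in LECs and 2 in BECs had shares without overlap, below the 29.1% and 26% of all genes tested. In BECs the shares were 40.3% and 38.2% in controls and 36.2–42.9% in mutants, on both sides of the controls. Reads per LEC that had any were 15.7 and 16.6 in controls and 10.8–17.0 in mutants, so that this measure overlapped.

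**Figure D2:**
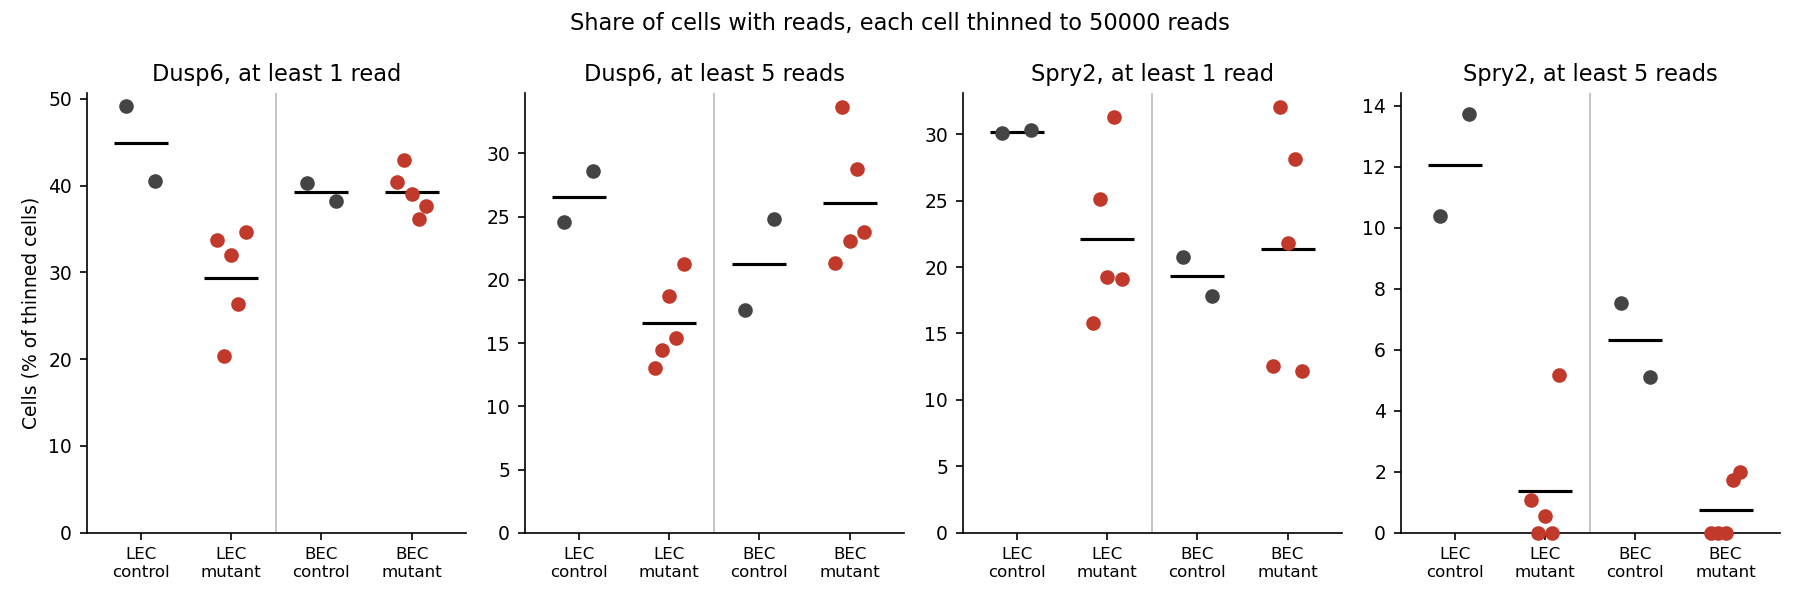
Share of LECs and BECs, in percent of cells thinned to 50000 reads, with at least 1 and at least 5 reads of Dusp6 and of Spry2, for each control (grey) and mutant (red) mouse, with group means as lines and axes from 0. Dusp6 separates the groups in LECs at both limits, while Spry2 does so only at 5 reads, where mutant LECs are at 0% to 5.18% and control LECs at 10.4% and 13.7%.

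Spry1 (ENSMUSG00000037211, chr3:37639947-37644598, plus strand) is a Sprouty gene of which 24.4% of exon bases overlap the predicted gene Gm42922, so reads there may be split. In BECs its level was 80.6 and 42.6 in controls and 45.5–63.9 in mutants, all of which lay between the controls. In LECs it was 29.0 and 11.7 in controls and 9.72–21.9 in mutants. Neither difference passed the test (log2 −0.28, SE 0.27, and −0.40, SE 0.43), and without control 1 both were above 0 (0.26 and 0.43).

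Spry4 (ENSMUSG00000024427, chr18:38586247-38601415, minus strand) had more reads in BECs. Its level there was 31.5 and 35.1 in controls and 7.08, 10.1, 12.3, 30.9 and 9.08 in mutants. Mutant 4 was close to the controls and the other mutants were far below them. The log2 fold change was −1.26 (SE 0.53, adjusted p = 0.239), and without mutant 4 it was −1.78 (adjusted p = 0.0486). In LECs Spry4 was at 2.55 and 3.33 in controls and 1.38–7.24 in mutants, with 1 control cell holding 57.7% of the control reads. Levels in the 2 cell types were close in mutant 5, at 7.24 and 9.08, and 92 of 1283 mutant LECs held a read.

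Dusp5 and Dusp4 encode nuclear ERK phosphatases and were near the limit of detection. Dusp5 (ENSMUSG00000034765, chr19:53529109-53542431, plus strand) had 3 and 6 reads in the BECs of controls 1 and 2. In mutants 1–5 it had 31, 78, 537, 326 and 424. In CPM this was 0.0640 and 0.143 against 0.834, 1.86, 5.87, 5.09 and 4.19. All mutants were above both controls (log2 5.10, SE 1.17), with an adjusted p of 0.0692 in edgeR and 1.87e-05 in DESeq2. Without control 2 it was 5.77. The reads came from 41 of 1174 mutant BECs, 1 of which held 29.6% of them, and from 7 of 316 control BECs. In LECs Dusp5 was at 1.74 and 2.30 in controls and 1.55–3.97 in mutants, which overlapped. Dusp4 (ENSMUSG00000031530, chr8:34807297-34819894, plus strand) had 65 reads in control LECs and 87 in mutant LECs, and a single cell held 87.7% and 73.6% of them. In BECs the numbers were 125 and 350, with 93.6% and 58.6% in 1 cell. No direction can be read from Dusp4.

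Etv5 (ENSMUSG00000013089, chr16:22381309-22439719, minus strand) had 23.5 and 15.6 in control LECs and 6.77, 8.23, 7.14, 26.1 and 11.4 in mutants. Mutant 4 was above both controls and the other 4 below, and the log2 fold change of −0.69 (SE 0.56) did not pass. In BECs the controls were at 41.0 and 9.27 and the mutants at 1.43, 6.53, 17.2, 8.74 and 6.22 (log2 −1.65, SE 0.80, adjusted p = 0.298). This value rested on control 1, without which it was −0.20. Etv4 (ENSMUSG00000017724, chr11:101769742-101785371, minus strand) was expressed in few LECs. It was at 4.22 and 5.01 in controls and 7.21, 7.27, 4.67, 8.93 and 7.51 in mutants, so that 4 of 5 mutants were above both controls (log2 0.64, SE 0.41, adjusted p = 0.413). In BECs controls had 16 and 0 reads and mutants 5 to 194, of which 1 cell held 40.2%.

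Within the 5 mutant mice, LECs and BECs were compared with the mouse as a block, and edgeR called 5 of the 10 genes, where it called 25% of 17799. Spry1 was 3.47-fold lower in LECs (log2 −1.79, SE 0.16, adjusted p = 0.000294). Dusp6 was 2.04-fold lower (log2 −1.03, SE 0.13, adjusted p = 0.00141) and Spred2 2.29-fold lower (log2 −1.20, SE 0.21, adjusted p = 0.00544). Spred1 was also lower (log2 −1.13, SE 0.30, adjusted p = 0.0312). Etv4 was the one gene higher in LECs (log2 3.05, SE 0.82, adjusted p = 0.0334). Spry4 had a log2 difference of −1.94 (SE 0.61, adjusted p = 0.0591), and Spry2 one of −0.01 (SE 0.28). The call of Spred1 was lost without mutant 2, 3 or 5 and without a filter on low counts, that of Etv4 without mutant 2, 3, 4 or 5 and without cells bearing markers of other types, and those of Spred1 and Spred2 without cells over both marker limits. In controls, with 2 mice and no test, Dusp6 was at 149.9 and 139.6 in LECs beside 120.1 and 135 in BECs. The order of the cell types that Dusp6 had in mutants was thus not present there. Spry1, Spred1, Spred2 and Etv4 did have the mutant order in both controls. Spry1 was at 29.0 and 11.7 in LECs beside 80.6 and 42.6 in BECs, and Spred2 at 14.1 and 24.8 beside 53.5 and 66.3. Spred1 was at 13.6 and 6.80 beside 27.4 and 40.2, and Etv4 at 4.22 and 5.01 beside 0.341 and 0.

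Among mutant LECs, Dusp6 was lower in cells expressing Ptx3, which encodes a secreted pentraxin and marks a subtype of capillary LECs. Cells with at least 2 Ptx3 reads after thinning were called positive, which gave 583 mutant LECs. The levels, scaled within this comparison, were 51.4, 39.5, 48.9, 38.0 and 57.0 in positive cells of mutants 1–5, and 70.3, 67.1, 123, 147 and 104 in negative cells. Positive cells were lower in 5 of 5 mice (log2 −1.10, SE 0.22, adjusted p = 0.0318), the 1 call among 9 of these genes, beside 5.95% of 15809 genes. In controls, which had 13 and 49 positive cells and were not tested, the values were 125 and 212 in positive and 153 and 114 in negative cells. The mutants' Dusp6 call was lost without mutants 2, 3, 4 or 5 and when 1 Ptx3 read sufficed. Compared between genotypes in Ptx3-negative LECs alone, Dusp6 differed by −0.36 on the log2 scale (SE 0.32, adjusted p = 0.671), beside −0.91 in all LECs, and Spry2 by −1.78 (SE 0.45, adjusted p = 0.157). Etv5 went the other way from Dusp6, with positive cells higher in 5 of 5 mutants (log2 0.78, SE 0.37, adjusted p = 0.289). In mutants 1 and 2 the step was slight, with Etv5 at 6.81 and 8.30 in positive and 6.59 and 7.95 in negative cells. Dusp5 had a log2 difference of −4.73 (SE 1.33, adjusted p = 0.0925) at levels of 0 to 1.12 in positive and 2.31–7.68 in negative cells.

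The 203 mutant LECs called cycling, in which 3 or more of 7 cell cycle genes had a read, were compared with the rest of the LECs of the same mice. Dusp6 was at 30.8, 36.0, 28.9, 18.5 and 48.9 in cycling cells and at 74.9, 62.4, 99.6, 103 and 82.5 in the others. It was lower in 5 of 5 mice (log2 −1.41, SE 0.28, adjusted p = 0.0237), the 1 of 9 genes called, where 8.25% of 15874 were, and the median of all genes was −0.11. Etv4 was higher in cycling cells of 5 of 5 mice, at 9.07, 13.3, 27.1, 38.1 and 21.3 against 6.52, 5.95, 1.53, 3.67 and 4.02. Its log2 difference of 2.32 (SE 0.65) had an adjusted p of 0.0757 in edgeR and 0.000526 in DESeq2. Spred1 had a log2 difference of 0.91 (SE 0.39, adjusted p = 0.208). Of control LECs 4 of 358 were called cycling, beside 203 of 1283 mutant LECs. Without cycling cells the Dusp6 difference between mutant and control LECs was −0.73 (SE 0.21, adjusted p = 0.137). The call in cycling cells was lost without mutant 1 or mutant 3.

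**Figure D3:**
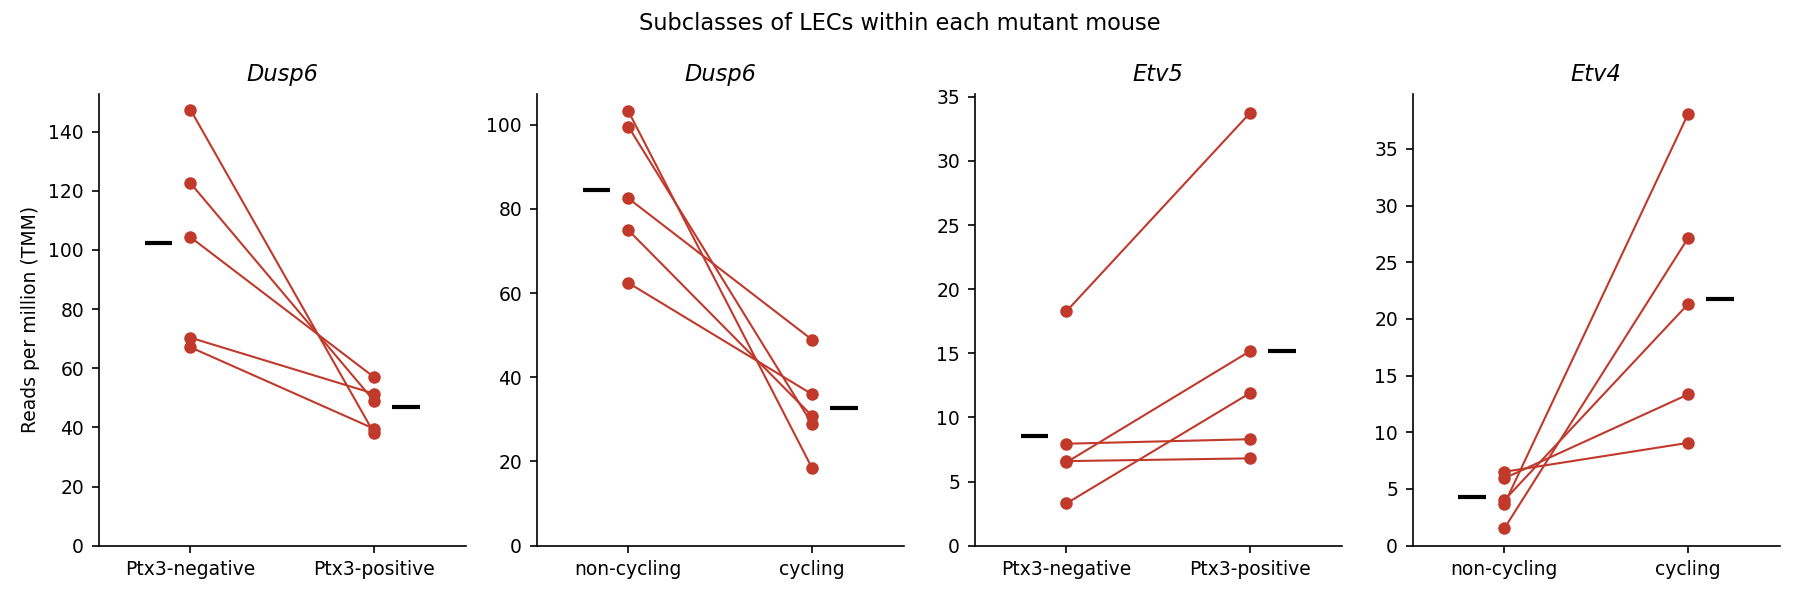
Levels of Dusp6, Etv5 and Etv4 in subclasses of LECs within each of the 5 mutant mice, in CPM on axes from 0, with lines joining the values of 1 mouse and short bars marking means. Dusp6 falls in every mouse from Ptx3-negative to Ptx3-positive cells and from non-cycling to cycling cells. Etv5 is higher in Ptx3-positive cells of every mouse, by little in mutants 1 and 2, and Etv4 in cycling cells of every mouse. Neither passes the edgeR test.

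Other ERK-responsive genes moved in both directions in LECs. Of 12 such genes 11 were tested, and edgeR called 2, beside 2.76% of all genes. Ccnd1, a cyclin of the G1 phase, rose from 105 and 176 to 389–492 (log2 1.62, SE 0.22, adjusted p = 0.0137), and Ier3 fell from 153 and 123 to 22.1–46.8 (log2 −1.85, SE 0.27, adjusted p = 0.0170). An unadjusted p under 0.05 was found for 8 of the 11 in LECs, 4 higher and 4 lower, beside 20.1% of all genes, and DESeq2 called 5, beside 12.6%. Among these, Fosl1, an AP-1 subunit named after its values were seen, was at 2.03 and 0.576 in controls and 5.20–10.4 in mutants (log2 2.53, SE 0.68), with an adjusted p of 0.0884 in edgeR and 0.000705 in DESeq2. In BECs none of the 11 passed, 2 had an unadjusted p under 0.05, beside 19.6% of all genes, and DESeq2 called 1, beside 11.6%. The median log2 fold change of the list, whose members lay on both sides of 0, was 0.05 in LECs and 0.22 in BECs. Of 20 genes of the RAS-ERK cascade itself, none passed in edgeR in either cell type, 6 in LECs and 3 in BECs had an unadjusted p under 0.05, and DESeq2 called 2 and 1, all near or below those shares of all genes except the 6 of 20 in LECs. Beside 2.76% of all genes called by edgeR in LECs, 2 of 8 receptor genes were called there, both higher in mutants. These were Fgfr1, an FGF receptor, from 290.1 and 269.98 to 470.4–627 (log2 0.98, SE 0.14, adjusted p = 0.0173), and Nrp2, the co-receptor of VEGFR3, from 249.9 and 447 to 752–974 (log2 1.32, SE 0.23, adjusted p = 0.0270). In LECs 3 of the 8 had an unadjusted p under 0.05 and DESeq2 called 3, beside 20.1% and 12.6% of all genes. None of the receptor genes passed in BECs, where 3 had an unadjusted p under 0.05 and DESeq2 called 2, beside 19.6% and 11.6%. Of 8 FOXO-responsive genes, which PI3K signaling holds down through AKT, edgeR called 0 in LECs, beside 2.76% of all genes. There 4 had an unadjusted p under 0.05, all lower in mutants, and DESeq2 called 2, beside 20.1% and 12.6% of all genes. In LECs 6 of the 8 were below 0 and 2 above. Bcl6 was the 1 of the 8 called in BECs (log2 −2.83, SE 0.55, adjusted p = 0.0409), where edgeR called 2.12% of all genes. In LECs Bcl6 was at −2.33 (SE 0.53), with an adjusted p of 0.0581 in edgeR and 0.000703 in DESeq2.

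Immediate-early genes, which respond to ERK and also to the handling of tissue, differed between the same groups. Their summed level was 2318 and 3914 in control LECs and 705–1695 in mutant LECs, and 4615–4663 and 1517–2702 in BECs, with no overlap. Plate series and genotype are not separated in these sums. In LECs, mutant 5, on the plate series of the controls, was highest of the mutants in Fos (276, others 70.5–128) and Dusp1 (685, others 221–416). Controls 1 and 2 were at 846 and 446 for Fos and 922 and 464 for Dusp1. Egr1 of mutant 5 was at 62.6, beside 329 and 263 in the controls. Beside 2.76% of all genes called by edgeR in LECs, 4 of 11 immediate-early genes were called there, all lower in mutants. They were Egr1 (log2 −2.78, SE 0.25, adjusted p = 0.00392), Zfp36 (−2.48, SE 0.37, adjusted p = 0.0184), Junb (−2.28, SE 0.41, adjusted p = 0.0318) and Fos (−2.21, SE 0.47, adjusted p = 0.0496). In BECs, where edgeR called 2.12% of all genes, 3 fell, namely Egr1, Junb and Ier2, with Egr1 at a log2 of −1.74 (SE 0.23, adjusted p = 0.0103). After cells in the top 25% of immediate-early level were left out, Spry2 in LECs still passed (log2 −2.03, adjusted p = 0.0352) and Dusp6 was at −0.64 (adjusted p = 0.169). The cut was set over the LECs of all mice together. Their median immediate-early level was 1635 and 813 CPM in controls, 414–767 in mutants 1–4 and 1126 in mutant 5. The cut can thus take more cells from the controls and mutant 5 than from mutants 1–4.

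Markers of other cell types also differed between the groups, where edgeR called 2.76% of all genes in LECs and 2.12% in BECs. The summed level of 5 fibroblast markers was 184–386 in control and 16.2–104 in mutant LECs, and 560–775 and 13.3–42.8 in BECs, where 4 of 5 passed as lower in mutants. Sums of 5 mural markers were 87.1–119.7 and 31.9–60.1 in LECs and 290–638 and 35.0–197 in BECs, with 1 marker passing in LECs. Those of 3 Schwann cell markers were 17.2–69.2 and 0.277–10.9 in LECs and 0.285–93.9 and 0.633–3.03 in BECs. Keratinocyte sums overlapped between groups in both types (172–301 and 53.8–284 in LECs, 231–405 and 10.6–548 in BECs), as did immune sums (8.34–26.0 and 17.6–44.4, and 5.67–9.67 and 5.49–12.6), although Cd68, a lysosomal protein of macrophages, was the 1 of 4 immune markers tested that rose in LECs (log2 5.27, SE 1.01, adjusted p = 0.0365). When cells bearing any such marker sum of at least 1000 were removed, Spry2 and Dusp6 both passed in LECs (adjusted p = 0.0214 and 0.0477). In BECs none of the 10 passed under that setting, and Spry2 was at a log2 of −1.09 (adjusted p = 0.264) beside −1.74 in all BECs.

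Over the 14 sums, the genes whose log2 level followed that of Dusp6 most closely, among 9679 compared, were Ampd2 (Pearson r = 0.90), Nxpe2 (0.90), Lrch1 (0.89), St6galnac3 (0.88) and Ppp1r14a (0.88). The 14 points are pairs of sums from 7 mice and differ in cell type, genotype and depth, so these values describe the samples only. Between single cells of a mouse, the mean Spearman rho over 7 mice ran from −0.02 to 0.13 over the 36 pairs of these genes with reads in every mouse in LECs, and from −0.02 to 0.09 over 21 pairs in BECs. Most genes had reads in few cells, which holds such values near 0, so neither a relation nor its absence can be read from them.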

How the data were processed

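The authors aligned Smart-Seq2 reads with TopHat2 2.1.1 to GRCm38 and the chicken PIK3CA sequence, removed duplicates with SAMtools 0.1.18 and counted reads per gene with featureCounts, and the deposited tables hold these raw counts for every well. The gene lengths beside them are summed exon bases. The annotation version is not given in the sources used here. The sample labelled Ctrl_3 was not analysed here. Symbols came from a reference table of Ensembl gene names for 98.9% of genes, coordinates from a GENCODE annotation of GRCm38, and the 92 spike-ins were left out.

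As in the study's methods, wells under 200 genes or 50000 reads, or over 10% mitochondrial reads, were dropped, and the remaining cells were typed by the marker rule of the report. No doublet caller was run, and LECs over both marker limits (1048 of 1641) were left out as an alternative. Counts were summed per mouse and fitted across all genes by the quasi-likelihood test of edgeR 4.0.16 under R 4.3.3, after TMM scaling and filterByExpr, with Benjamini-Hochberg adjustment and a call at 0.05. DESeq2 1.42.0 was an alternative. Comparisons within mice and of both types had the mouse as a block. The fits were also run on simulated counts with the same dispersion for all genes. Such counts lack the uneven spread of reads over cells seen here, so they test the code only. Shares of cells used thinned counts and exact permutation tests over mice, run in scipy 1.17.1, and their intervals cover counting error only. Alternatives were another scaling, no filter, each mouse left out, blocks by replicate number or plate series, first plates, thinned cells, and subsets of cells. Removing cells with markers of other types, removing cells high in immediate-early genes and the limit of 5 reads were chosen after seeing the data. All 10 genes were named. Of each other list, up to 5 called genes were named by size of change, plus the 5 genes most like Dusp6. The genes and lists were chosen with earlier results of these data known.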

Additional observations from a re-analysis of the deposited data

Results flagged for a closer look

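Among the 20 sets of levels in the 5 mutant mice (10 genes, 2 cell types), 4 had a mouse far from the other 4, with a gap beyond Dixon's critical value, where chance gives about 1 in 20. In BECs, mutant 4 was high for Spry1 (63.9 CPM, others 45.5–50.4) and Spry4 (30.9, others 7.08–12.3), and mutant 2 was high for Spred2 (32.2, others 11.6–14.9). In LECs, mutant 4 was high for Etv5 (26.1, others 6.77–11.4). Mutant 4 held 3 of the 4 values. The cause was not tested.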

How the results depend on the processing

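Of 514 refitted log2 fold changes of the 10 genes, 441 kept direction and call, 30 lost a call, 20 gained one and 23 changed sign, none of the last with a call on either side. DESeq2 called more genes than edgeR in every comparison printed here. In LECs (edgeR 546) it called 2490, with 3 of the 10, in BECs (410) 2238, with 4 of the 10, in the difference of the types (42) 1258, with 2, between Ptx3 classes (940) 2534, with 2, and between cycling classes (1309) 3308, with 2. In LECs, Spry2 was not called and 0 of the 10 were under the plate series as a block (178 genes called), without cells over both marker limits (368), without cycling cells (130) and in Ptx3-negative cells alone (11), whereas 2 were called in thinned cells (531 genes) and without cells bearing other markers (662). In BECs the plate series as a block left 54 genes and leaving out cells high in immediate-early genes 252, and 1 of the 10 was called in thinned cells (328 genes) and without cells over both limits (427). The difference of the types had 22 genes called without cells over both limits and 90 without cells bearing other markers, and LECs against BECs 3 of the 10 without cells over both limits. With 1 Ptx3 read as the limit, 315 genes and 0 of the 10 were called. Of 20 shares of cells, 3 had groups that did not overlap, below the 29.1% (LECs) and 26% (BECs) of all genes. The number was 5 with cells of at least 100000 reads and 3 to 9 with a mouse left out.

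The labels number control and mutant mice alike, and no pairing by number was seen. Deviations from the group mean of samples sharing a number had correlations of −0.04 and 0.04 in LECs and 0.02 and 0.09 in BECs. With 2 controls, the deviations of control 1 are the reverse of those of control 2, so these values cannot exclude a pairing. With the replicate block, 3 genes were called in LECs, 0 in BECs and 0 of the 10 in LECs, and Spry4 in LECs was at −0.37.

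Signs changed only for genes not called. In LECs these were Spred1 without a filter on low counts (0.00276), Spry4 on first plates (−0.0931) and without cells over both limits (−1.69), Dusp5 on first plates (−0.0793), without cells over both limits (−1.72), in thinned cells (−0.00728) and without cells high in immediate-early genes (−1.001), and Dusp4 in that last setting (1.07). In BECs they were Dusp4 in thinned cells (0.43) and without cells bearing other markers (4.28) and Spry1 without cells high in immediate-early genes (0.00970). With each mouse left out, 0 to 1 of the 10 were called in LECs (153 to 546 genes) and 0 to 1 in BECs (159 to 586), 0 in the difference of the types (0 to 21), 3 to 5 in LECs against BECs, 0 to 1 between Ptx3 classes (367 to 610) and 0 to 1 between cycling classes (698 to 846). Ranges that crossed 0 were −0.91 to 0.43 for Spry1, −0.11 to 0.53 for Spry4, −0.46 to 0.57 for Spred1, −2.85 to 0.23 for Dusp4 and −0.13 to 0.39 for Dusp5 in LECs, and −0.67 to 0.26 for Spry1 and −1.20 to 4.54 for Dusp4 in BECs. With 1 control left, it was assumed to vary like the mutants. Depth limits Dusp4 in both types and Dusp5 and Etv4 in BECs, where few cells held the reads.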
